A study of Mus musculus with 9 samples.

Results

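The 10 genes described here are Il1r1, Ch25h, Vwf, Vcam1, Icam1, Nr2f2, Ephb4, Lcn2, Lrg1 and Selp, a group of venous and leukocyte adhesion genes of the blood vessel lining, among 23420 genes measured. They were taken by name from a group selected on measured values of these libraries: Il1r1 and Ch25h were chosen by their lower level in APP/PS1xRIPK1KD than in APP/PS1. For the 10 genes that comparison is therefore given as a description with no test. Other genes were tested in it, in lists chosen with earlier results of these data known. Transcripts were measured by Smart-seq2, a poly(A)-primed and PCR-amplified bulk RNA-seq protocol, in brain endothelial cells of 6-month-old C57BL/6 mice. Cells were sorted for CD31, an endothelial surface protein, and against CD45, the surface protein of leukocytes, and 20000 of them entered each library. APP/PS1xRIPK1KD mice carry the APP/PS1 transgenes and an altered Ripk1, the gene of receptor-interacting kinase 1 of the tumour necrosis factor pathway. APP/PS1 mice carry the transgenes alone, which model brain amyloid deposition, and WT mice carry neither. Each genotype has 3 libraries, each labelled as 1 male mouse. What KD stands for, whether WT mice were littermates, and the promoters of the transgenes are not given in the sources used here.

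Leukocytes leave the blood mainly through venules, the small veins behind the capillaries. There the endothelium shows selectins and immunoglobulin-type adhesion molecules on its surface and stores P-selectin and von Willebrand factor in Weibel-Palade bodies, granules that are released on activation. Interleukin 1 acts on brain endothelium through the receptor encoded by Il1r1 and can raise adhesion molecules and acute-phase proteins. Venous identity itself is set in part by the transcription factor Nr2f2 and marked by the receptor Ephb4.

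All 10 genes passed the filter on low counts, as did 13317 genes in all. Library totals ran between 16263762 counts (APP/PS1 replicate 1) and 52413164 counts (APP/PS1 replicate 3). The summed level of 8 pan-endothelial markers was 13739 to 14968 CPM (the count scaled to the TMM-adjusted library size) in APP/PS1xRIPK1KD, 11362 to 14984 CPM in APP/PS1 and 12322 to 14590 CPM in WT. A large part of the totals was Rn45s, a ribosomal RNA precursor. It stood at 185050 to 259547 CPM in APP/PS1xRIPK1KD, 137019 to 295055 CPM in APP/PS1 and 310986 to 380271 CPM in WT. Every WT library was above every other library for Rn45s (FDR 0.662 and 0.797 for APP/PS1xRIPK1KD and APP/PS1 against WT, edgeR quasi-likelihood). Its part in the results was not tested. Ripk1 averaged 37.3 ± 6.91 CPM in APP/PS1xRIPK1KD, 56.3 ± 17.5 CPM in APP/PS1 and 42.7 ± 6.89 CPM in WT (SD, n = 3 each), and no comparison of it passed edgeR's quasi-likelihood test (FDR 0.98, 0.986 and 0.834). The sex labels did not match the transcripts: 6 libraries, replicates 1 and 2 of every genotype, held 264 to 534 CPM of Xist and at most 0.434 CPM summed over 4 Y-linked genes. The 3 libraries of replicate 3 held at most 4.78 CPM of Xist and 150 to 185 CPM of the Y-linked sum. Log2 fold changes without replicate 3 of every genotype are therefore given for each gene. WT replicate 3 also stood apart for these genes: it was the highest of all 9 libraries for 7 of the 10, against 9.33% of all tested genes.

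Il1r1 (ENSMUSG00000026072.12, GRCm38 chr1:40225080-40317257, plus strand) encodes the signalling receptor for interleukin 1 alpha and beta. It stood at 33.8, 42.1 and 52.7 CPM in APP/PS1xRIPK1KD, against 90.1, 127 and 65.7 CPM in APP/PS1 and 113, 65.0 and 167 CPM in WT (replicates 1, 2 and 3). All 3 APP/PS1xRIPK1KD libraries lay below all 6 others, while APP/PS1 and WT overlapped. In the bulk samples, fewer cells of a type and less RNA per cell cannot be told apart. The mean was 42.9 ± 9.49 CPM in APP/PS1xRIPK1KD, 2.20-fold lower than 94.4 ± 31.1 CPM in APP/PS1, and the fitted log2 fold change was -1.14 ± 0.32 (SE). Without replicate 3 of every genotype it was -1.52. Against WT, with 115 ± 50.8 CPM, the log2 fold change was -1.42 ± 0.33, which missed the threshold after adjustment over all tested genes (FDR 0.419, edgeR quasi-likelihood). It was -1.05 without WT replicate 3 and -1.23 without replicate 3 of every genotype. DESeq2 put the same comparison past the threshold (adjusted p = 0.0022). The adjusted p ran between 0.0022 and 0.891 over the 15 alternatives. Il1r1 was chosen for its low level in these APP/PS1xRIPK1KD libraries, so none of these p-values is independent of that choice. APP/PS1 differed from WT by -0.28 ± 0.32 (FDR 0.933), less than the spread between libraries, and by 0.29 without replicate 3 of every genotype.

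Ch25h (ENSMUSG00000050370.5, chr19:34473778-34475164, minus strand, 1 exon) encodes cholesterol 25-hydroxylase, which makes the oxysterol 25-hydroxycholesterol. It stood at 7.79, 8.90 and 10.3 CPM in APP/PS1xRIPK1KD, against 20.2, 32.1 and 26.1 CPM in APP/PS1 and 17.9, 7.86 and 61.4 CPM in WT. The APP/PS1xRIPK1KD libraries were close together and below all of APP/PS1, but WT replicate 2 lay among them. Its mean of 9.01 ± 1.28 CPM in APP/PS1xRIPK1KD was 2.91-fold lower than the 26.2 ± 5.97 CPM of APP/PS1 (log2 fold change -1.54 ± 0.58, and -1.65 without replicate 3 of every genotype). WT averaged 29.1 ± 28.5 CPM, an SD nearly as large as the mean. The log2 fold change of APP/PS1xRIPK1KD against WT was -1.69 ± 0.58 (FDR 0.662, edgeR) and moved to -0.51 without WT replicate 3 and to -0.62 without replicate 3 of every genotype. APP/PS1 against WT was -0.15 ± 0.57 (FDR 0.989) and turned to 1.03 without WT replicate 3, and likewise to 1.03 without all 3.

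The promoters of 3 genes are shown because their libraries did not overlap between APP/PS1xRIPK1KD and APP/PS1 and their windows hold 1 of 4 motifs of inflammatory or cyclic AMP signalling, a set picked after the data were seen. Each window holds the 250 bases before a RefSeq transcript start on GRCm38.p6, read 5′ to 3′ on the gene's strand, and capitals mark the motif.
Icam1, chr9:21015690-21015939, plus strand: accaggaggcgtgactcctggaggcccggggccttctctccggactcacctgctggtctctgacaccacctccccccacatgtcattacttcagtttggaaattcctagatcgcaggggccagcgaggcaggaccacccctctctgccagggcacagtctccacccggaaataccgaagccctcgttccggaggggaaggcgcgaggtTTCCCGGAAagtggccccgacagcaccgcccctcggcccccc
Ch25h, chr19:34475149-34475398, minus strand: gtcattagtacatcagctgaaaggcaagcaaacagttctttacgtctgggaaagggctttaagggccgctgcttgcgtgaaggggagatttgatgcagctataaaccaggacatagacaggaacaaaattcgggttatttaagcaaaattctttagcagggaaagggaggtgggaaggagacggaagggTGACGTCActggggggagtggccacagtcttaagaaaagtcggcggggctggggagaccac
Il1r1, second start, chr1:40266336-40266585, plus strand: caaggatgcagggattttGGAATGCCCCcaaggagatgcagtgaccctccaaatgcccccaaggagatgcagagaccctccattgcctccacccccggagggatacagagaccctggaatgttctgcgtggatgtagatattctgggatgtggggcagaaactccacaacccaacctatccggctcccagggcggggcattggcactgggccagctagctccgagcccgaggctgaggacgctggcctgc
In Icam1 the capitals are a STAT-type motif (TTCNNNGAA) 42 to 34 bases before the start. In Ch25h they are a cyclic AMP response element (TGACGTCA) 61 to 54 bases before it. In the second start of Il1r1 they match the NF-kB consensus 232 to 223 bases before it, and the first start (chr1:40224830-40225079) held none of the 4 motifs. Both strands were searched, with TGANTCA (AP-1) as the remaining motif. Of 32841 windows of this length, 7.02% hold the STAT motif, 1.55% the cyclic AMP response element, 7.25% the NF-kB consensus and 6.75% the AP-1 motif. RefSeq windows were found for 8 of the 10 genes, all but Vwf and Vcam1. Of these 8, 4 genes had a match, the fourth being Selp with AP-1 (TGATTCA, chr1:164115014-164115263, plus strand). A match is a run of letters and says nothing here about binding. Sites that depart from the 4 patterns are not marked, so a window without a mark for a factor can still hold a site for it.

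Icam1 and Vcam1 encode the immunoglobulin-type ligands that leukocyte integrins hold on to. Icam1 (ENSMUSG00000037405.8, chr9:21015985-21028817, plus strand) stood at 55.2, 43.7 and 69.1 CPM in APP/PS1xRIPK1KD, against 91.0, 119 and 80.9 CPM in APP/PS1 and 58.4, 40.0 and 118 CPM in WT. Its APP/PS1xRIPK1KD libraries were all below those of APP/PS1 and lay among those of WT. The mean was 56.0 ± 12.7 CPM in APP/PS1xRIPK1KD, 1.73-fold lower than the 96.9 ± 19.7 CPM of APP/PS1 (log2 fold change -0.79 ± 0.34, and -1.09 without replicate 3 of every genotype). Against WT, with 72.3 ± 41.1 CPM, the log2 fold change was -0.37 ± 0.34 (FDR 0.976, edgeR) and changed sign to 0.19 without WT replicate 3. APP/PS1 against WT was 0.42 ± 0.34 (FDR 0.908), and 0.98 without that library. Without replicate 3 of every genotype these were 0.01 and 1.09.

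Vcam1 (ENSMUSG00000027962.14, chr3:116109949-116129688, minus strand) was more uneven. It stood at 66.2, 114 and 237 CPM in APP/PS1xRIPK1KD, against 196, 361 and 294 CPM in APP/PS1 and 147, 30.0 and 441 CPM in WT. The third APP/PS1xRIPK1KD library reached into the APP/PS1 range, and WT held both the lowest and the highest of the 9 libraries. The mean was 139 ± 88.3 CPM in APP/PS1xRIPK1KD, 2.04-fold lower than 284 ± 83.1 CPM in APP/PS1 (log2 fold change -1.03 ± 0.92, and -1.64 without replicate 3 of every genotype). WT averaged 206 ± 212 CPM. The log2 fold change against WT was -0.57 ± 0.92 in APP/PS1xRIPK1KD (FDR 0.995, edgeR) and 0.46 ± 0.92 in APP/PS1 (FDR 0.975), and without WT replicate 3 these became 0.65 and 1.68. Leaving out replicate 3 of every genotype gave 0.02 and 1.66.

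Vwf and Selp encode the main cargo of Weibel-Palade bodies, von Willebrand factor and P-selectin. Vwf (ENSMUSG00000001930.17, chr6:125546774-125686679, plus strand) stood at 195, 263 and 409 CPM in APP/PS1xRIPK1KD, against 442, 416 and 478 CPM in APP/PS1 and 574, 206 and 654 CPM in WT. All APP/PS1xRIPK1KD libraries were below all APP/PS1 libraries, the nearest being 409 and 416 CPM, and WT replicate 2 lay near the lowest of them. The mean was 289 ± 109 CPM in APP/PS1xRIPK1KD, 1.54-fold lower than 445 ± 30.6 CPM in APP/PS1 (log2 fold change -0.62 ± 0.39, and -0.91 without replicate 3 of every genotype), with 478 ± 239 CPM in WT. Against WT the log2 fold change was -0.73 ± 0.39 in APP/PS1xRIPK1KD (FDR 0.878, edgeR) and -0.10 ± 0.38 in APP/PS1 (FDR 0.989). The value in APP/PS1xRIPK1KD was -0.43 without WT replicate 3 and -1.09 without WT replicate 2 (FDR 0.399). Without replicate 3 of every genotype the values against WT were -0.77 and 0.14.

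Selp (ENSMUSG00000026580.16, chr1:164115264-164150026, plus strand) was the lowest of the 10 genes, with 12, 45 and 0 counts in APP/PS1xRIPK1KD, against 52, 19 and 80 counts in APP/PS1 and 55, 0 and 39 counts in WT. In CPM these were 0.245, 1.03 and 0, against 3.27, 0.354 and 1.59 in APP/PS1 and 1.62, 0 and 0.835 in WT. With a floor of 3 counts, the level could still be up to 0.0541 CPM in APP/PS1xRIPK1KD replicate 3 and 0.0791 CPM in WT replicate 2. All 3 genotypes overlapped. The log2 fold change was -2.02 ± 1.73 for APP/PS1xRIPK1KD against APP/PS1, -0.95 ± 1.68 for APP/PS1xRIPK1KD against WT (FDR 0.996, edgeR) and 1.08 ± 1.68 for APP/PS1 against WT (FDR 0.971), all from at most 80 counts in a library. Leaving out replicate 3 of every genotype gave -1.49, -0.35 and 1.15.

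The transcription factor Nr2f2 and the receptor Ephb4 mark venous identity. Nr2f2 (ENSMUSG00000030551.14, chr7:70351944-70366735, minus strand), which encodes the transcription factor COUP-TFII, stood at 12.8, 19.1 and 16.8 CPM in APP/PS1xRIPK1KD, against 22.8, 26.7 and 12.9 CPM in APP/PS1 and 10.2, 8.12 and 30.2 CPM in WT. Both transgenic genotypes lay within the WT range. The log2 fold change was -0.36 ± 0.44 for APP/PS1xRIPK1KD against APP/PS1, 0.01 ± 0.44 for APP/PS1xRIPK1KD against WT (FDR 1.0, edgeR) and 0.36 ± 0.44 for APP/PS1 against WT (FDR 0.95). Without WT replicate 3 the last 2 values were 0.83 and 1.19, since the other WT libraries are the lowest of all 9. The 3 values were -0.63, 0.80 and 1.44 without replicate 3 of every genotype.

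Ephb4 (ENSMUSG00000029710.15, chr5:137350109-137378669, plus strand), the venous receptor for the arterial ligand ephrin B2, was the steadiest of the group. It stood at 148, 175 and 115 CPM in APP/PS1xRIPK1KD, against 120.2, 106 and 166 CPM in APP/PS1 and 117, 156 and 137 CPM in WT. The means were 146 ± 30.1 CPM in APP/PS1xRIPK1KD, 131 ± 31.3 CPM in APP/PS1 and 137 ± 19.3 CPM in WT. It was the only one of the 10 with a positive log2 fold change between APP/PS1xRIPK1KD and APP/PS1, 0.16 ± 0.20. Its values against WT were 0.09 ± 0.20 in APP/PS1xRIPK1KD (FDR 0.997, edgeR) and -0.06 ± 0.20 in APP/PS1 (FDR 0.988). With replicate 3 of every genotype left out, APP/PS1xRIPK1KD against APP/PS1 was 0.51, and the values against WT were 0.24 and -0.27. Its value in WT replicate 3 was 1.01-fold the mean of the other WT libraries, so the excess of that library did not extend to it.

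Lcn2 and Lrg1 encode secreted acute-phase proteins, lipocalin 2, which binds bacterial siderophores, and leucine-rich alpha-2 glycoprotein 1, which modifies TGF-beta signalling in endothelium. Lcn2 (ENSMUSG00000026822.14, chr2:32384633-32388252, minus strand) stood at 1.59, 3.104 and 2.54 CPM in APP/PS1xRIPK1KD, against 3.71, 6.45 and 8.56 CPM in APP/PS1 and 4.60, 3.53 and 110.2 CPM in WT. Every APP/PS1xRIPK1KD library was below every other library. WT replicate 3 stood 27.1-fold above the mean of the other WT libraries. The mean of 2.41 ± 0.764 CPM in APP/PS1xRIPK1KD was 2.62-fold lower than the 6.24 ± 2.43 CPM of APP/PS1 (log2 fold change -1.39 ± 1.24). Against WT the log2 fold change was -4.03 ± 1.35 in APP/PS1xRIPK1KD (FDR 0.705, edgeR), and -0.75 without WT replicate 3. In APP/PS1 it was -2.65 ± 1.26 (FDR 0.829), and 0.62 without that library. Leaving out replicate 3 of every genotype gave -1.12 between APP/PS1xRIPK1KD and APP/PS1, and -0.79 and 0.33 for the 2 genotypes against WT.

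Lrg1 (ENSMUSG00000037095.8, chr17:56119678-56122001, minus strand) stood at 2.94, 6.85 and 30.4 CPM in APP/PS1xRIPK1KD, against 22.1, 49.9 and 71.9 CPM in APP/PS1 and 45.3, 9.88 and 359 CPM in WT. The third APP/PS1xRIPK1KD library lay inside the APP/PS1 range, and the other 2 were the lowest of all 9. WT replicate 3 stood 13.0-fold above the mean of the other WT libraries. The mean was 13.4 ± 14.9 CPM in APP/PS1xRIPK1KD, 3.59-fold lower than 48.0 ± 25.0 CPM in APP/PS1 (log2 fold change -1.84 ± 1.44, and -2.89 without replicate 3 of every genotype). Against WT the log2 fold change was -3.36 ± 1.52 in APP/PS1xRIPK1KD (FDR 0.851, edgeR) and -1.52 ± 1.42 in APP/PS1 (FDR 0.931), which became -1.04 and 0.80 without WT replicate 3, and -2.50 and 0.39 without replicate 3 of every genotype.

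**Figure D1:**
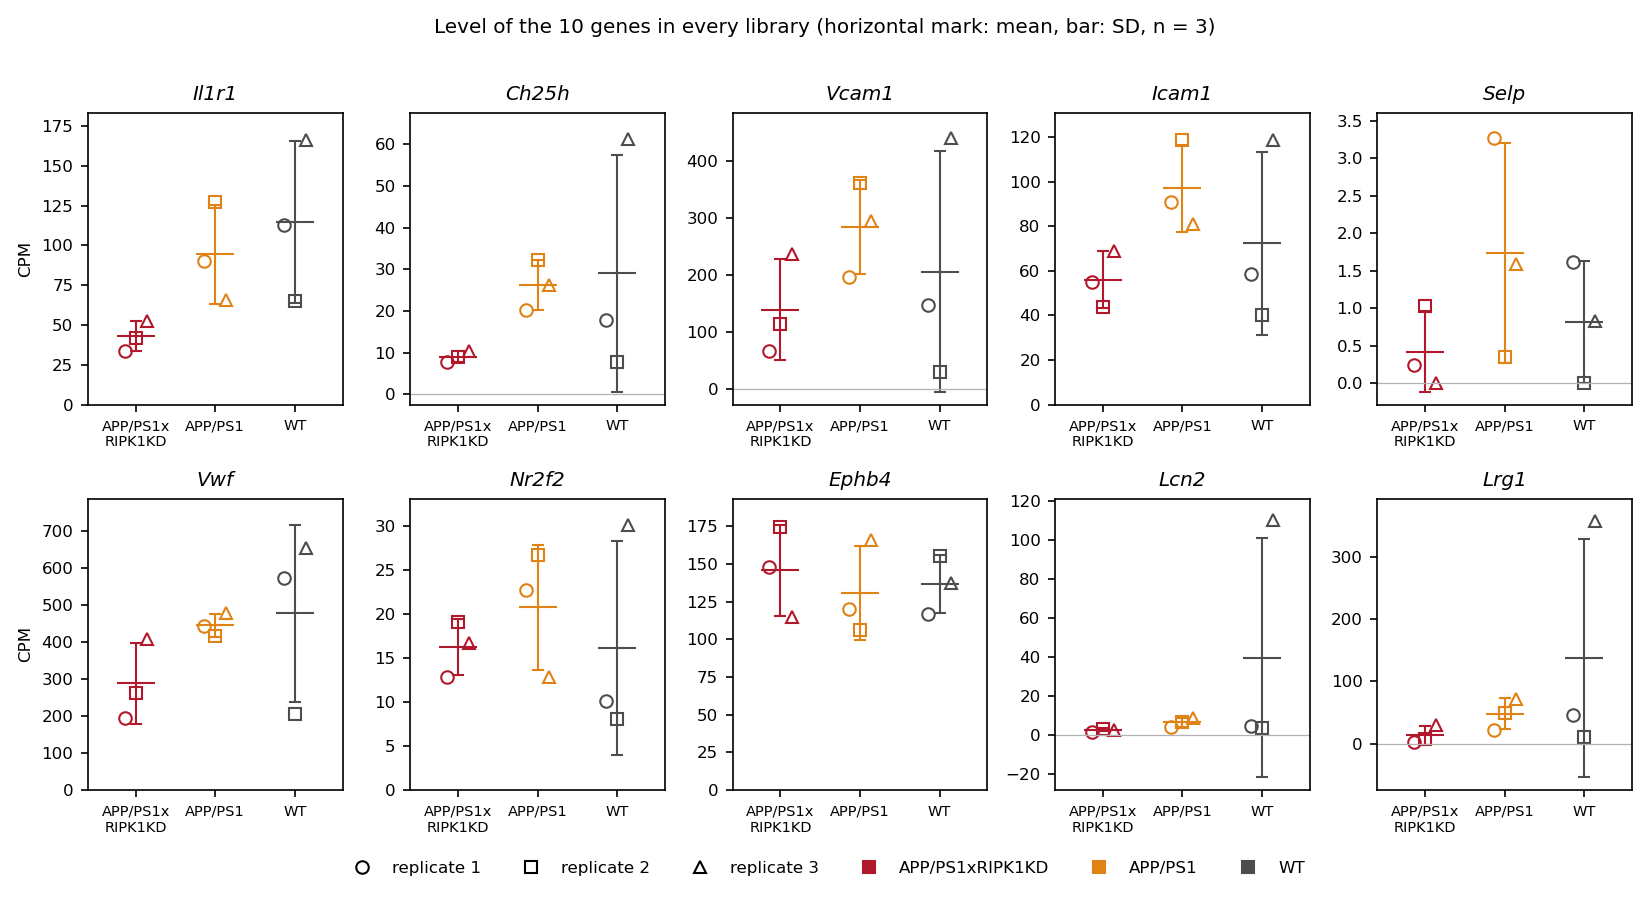
Level of each of the 10 genes in CPM (vertical axes, linear) in every library of APP/PS1xRIPK1KD, APP/PS1 and WT, with the mean and SD of 3 libraries and a marker shape per replicate number. Il1r1 and Lcn2 are lowest in the 3 APP/PS1xRIPK1KD libraries, and WT replicate 3 is the highest library for 7 of the 10 genes.

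Over the group, 9 of the 10 log2 fold changes of APP/PS1xRIPK1KD against APP/PS1 were below 0, beside 50.6% of all tested genes, and the median was -1.085 beside -0.003 over all genes. Libraries did not overlap, with APP/PS1xRIPK1KD lower, for 5 of the 10 (Il1r1, Ch25h, Vwf, Icam1 and Lcn2), beside 4.66% of all tested genes (5.32% were higher without overlap). The FDR threshold of 0.05 was passed by 0.00751% of all tested genes in this comparison. These counts describe how the genes were proposed. Leaving out replicate 3 of every genotype, the median was -1.306.

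APP/PS1xRIPK1KD and WT were compared with the same fit, and this comparison shares the APP/PS1xRIPK1KD libraries with the one that proposed the genes. Il1r1 and Ch25h were chosen for low levels in those libraries. Their p-values here are therefore not independent of that choice and give no separate support. Of the 10 log2 fold changes 8 were below 0, beside 49.4% of all tested genes, and 2 genes (Il1r1 and Lcn2) did not overlap, beside 5.99% of all tested genes that were lower without overlap and 6.05% that were higher. The median was -0.838, and -0.472 without WT replicate 3. None of the 10 passed the FDR threshold of 0.05 in edgeR (0.0375% of all genes did), and DESeq2 called 1, Il1r1, of 9 to which it gave an adjusted p (all but Lcn2), beside 63 of 13251 genes in all. An unadjusted p under 0.05 was reached by 3, all lower (Il1r1, Ch25h and Lcn2), beside 3.21% of all tested genes that were lower at that p and 2.97% that were higher. That count was 6 without WT replicate 2, and 1 without APP/PS1xRIPK1KD replicate 1 or without APP/PS1xRIPK1KD replicate 2.

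For APP/PS1 against WT, which shares the APP/PS1 libraries with the proposing comparison, the 10 genes split, with 6 below 0, beside 49.8% of all tested genes, and 4 above, beside 50.2%. None was without overlap, beside 5.43% of all tested genes higher and 5.44% lower. The median was -0.082 with all libraries, 0.892 without WT replicate 3 and 0.71 without replicate 3 of every genotype, so its sign depended on that library. None of the 10 passed the FDR threshold in edgeR (0.0225% of all genes did), DESeq2 called 0, and 0 had an unadjusted p under 0.05, beside 2.65% of all tested genes lower and 3.49% higher at that p. Without WT replicate 3, the unadjusted p was under 0.05 for 3 of them, with an FDR above the threshold for each, beside 570 higher and 480 lower genes of 13791 at that p in the same fit. The authors' deposited table of this comparison lists all 10 genes among 12460, none of them past an FDR of 0.05, which 26 genes passed. In the authors' deposited table the log2 fold changes run between -2.58 for Lcn2 (FDR 0.403) and 1.17 for Selp.

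**Figure D2:**
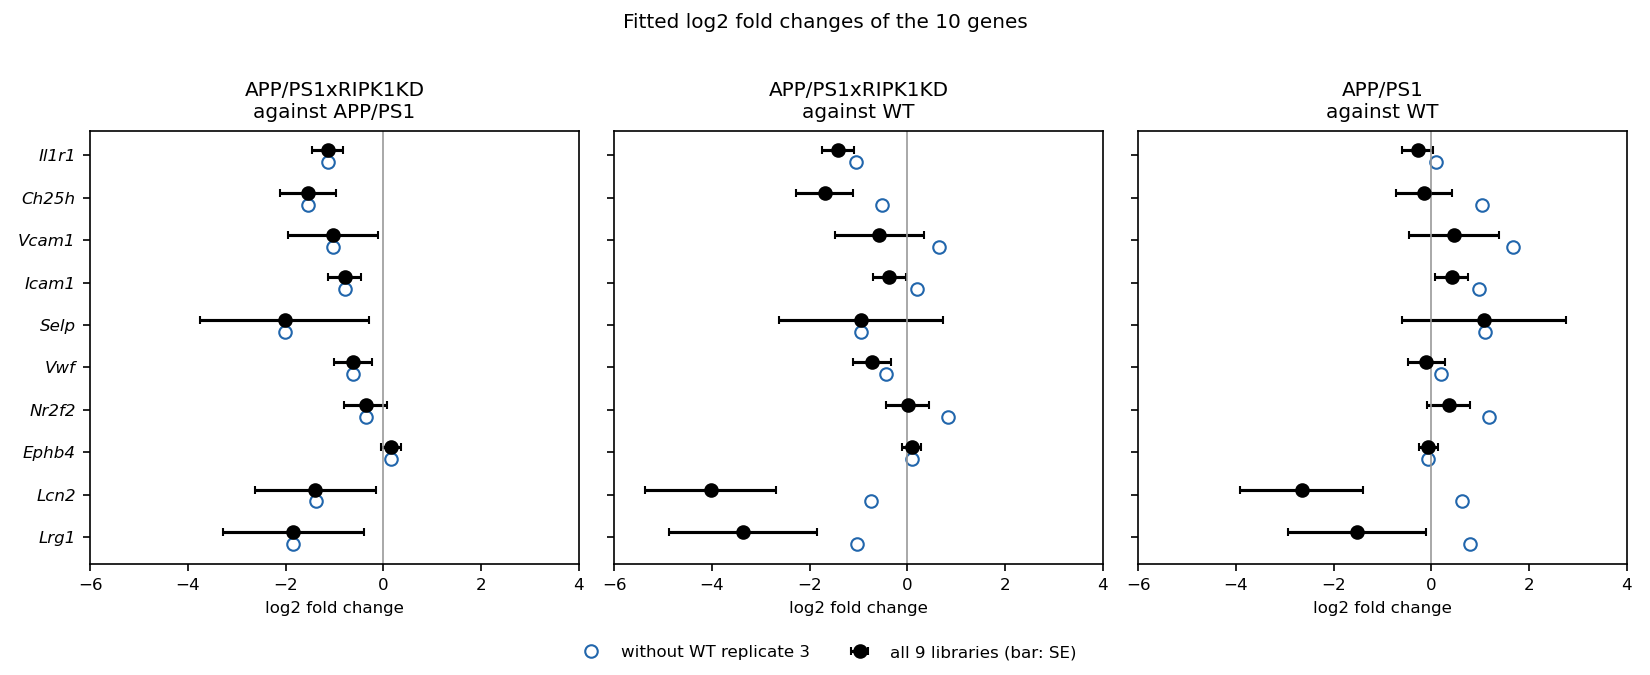
Fitted log2 fold change (horizontal axes) of the 10 genes in the 3 comparisons, with all 9 libraries (filled, bar SE) and without WT replicate 3 (open). In the 2 comparisons with WT most open points lie to the right of the filled ones, as for Lcn2 in APP/PS1 against WT, -2.65 against 0.62.

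Much of the variation in the group lay between libraries of 1 genotype. WT replicate 3 was over 2-fold above both other WT libraries for 6 of the 10 genes (Ch25h, Vcam1, Icam1, Nr2f2, Lcn2 and Lrg1), against 4.31% of all tested genes. Its ratio to the mean of the other WT libraries was 4.98 for Vcam1, 4.77 for Ch25h, 3.30 for Nr2f2, 2.41 for Icam1, 1.87 for Il1r1, 1.68 for Vwf and 1.03 for Selp. WT replicate 2 was the lowest WT library for 9 of the 10, against 35.0% of all tested genes, the exception being Ephb4. APP/PS1xRIPK1KD replicate 1 was the lowest library of its genotype for 7 of the 10, against 33.3% of all tested genes. The same libraries were also low in arterial genes: of 14 arterial genes, 9 were lowest of APP/PS1xRIPK1KD in replicate 1 and 11 were lowest of WT in replicate 2. WT replicate 3 was the highest of the 9 libraries for 0 of those 14, beside 9.33% of all tested genes. It was the highest for 6 of 13 NF-kB targets, 4 of 8 other venous genes, 5 of 16 interleukin signalling genes and 3 of 7 chemokines. For other lists the counts were low, with 1 of 13 other adhesion genes and 2 of 11 Weibel-Palade body genes. They were 0 of 9 oxysterol genes and 0 of 5 receptors and partners of Lcn2 and Lrg1.

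**Figure D3:**
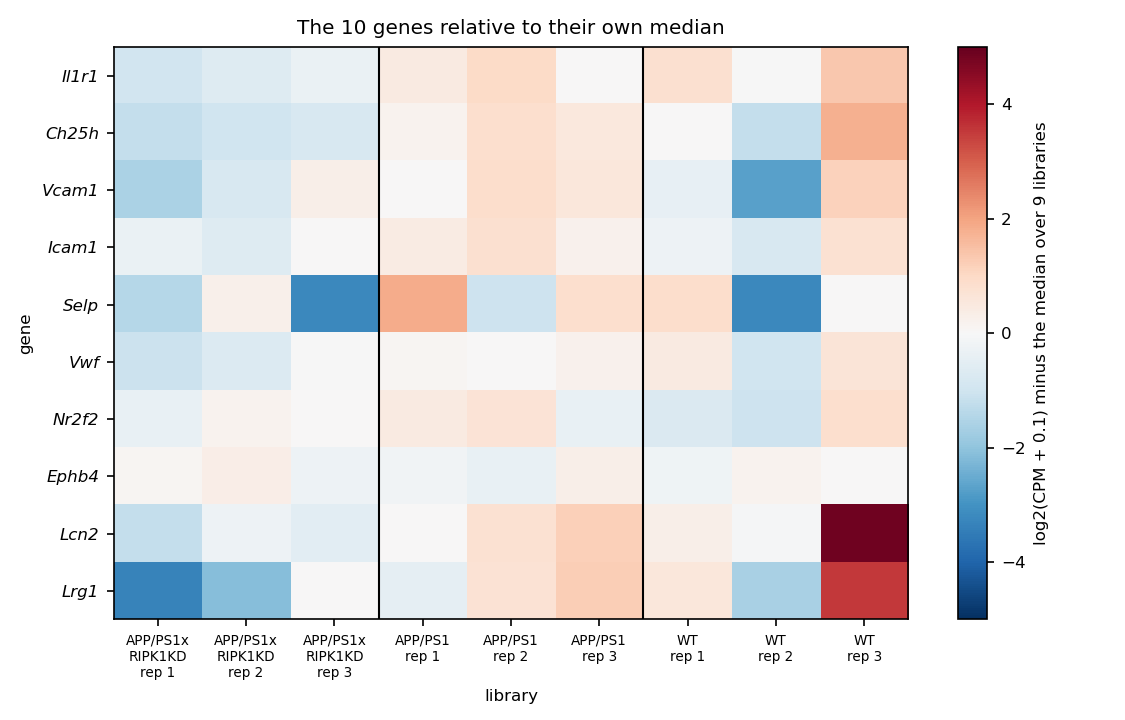
Each of the 10 genes (rows) in each library (columns) as log2(CPM + 0.1) minus the gene's median over 9 libraries. The WT replicate 3 column is red for most genes and the WT replicate 2 and APP/PS1xRIPK1KD replicate 1 columns are mostly blue, while the Ephb4 row is pale throughout.

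Over the 9 libraries, Pearson's r of log2 CPM was 0.91 between Ch25h and Lrg1, 0.91 between Vwf and Lrg1, 0.89 between Ch25h and Icam1, 0.88 between Vcam1 and Icam1 and 0.86 between Il1r1 and Ch25h. These are descriptions over 9 points that share genotype, library depth and the high WT replicate 3. Ch25h had the highest median r with the other 9 genes, 0.84, and still 0.79 without WT replicate 3. Ephb4 had a median r of -0.33, Selp of 0.34 and Nr2f2 of 0.47, which was 0.28 without WT replicate 3. The medians of Il1r1, Ch25h, Vcam1, Icam1, Vwf, Lcn2 and Lrg1 were 0.63 to 0.84. Nr2f2 was nonetheless close to the adhesion genes, with r of 0.77 with Icam1 and 0.76 with Vcam1 (0.70 and 0.69 without WT replicate 3). For deviations from the genotype means, WT replicate 3 included, r of Nr2f2 ran between 0.55 with Vwf and 0.87 with Il1r1. Its r with Ch25h, Vcam1, Icam1, Lcn2 and Lrg1 lay between these. It was 0.26 with Selp and -0.31 with Ephb4.

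Among 9717 other genes of at least 5 CPM, the profile most like that of Il1r1 was Mrrf (r = 0.943 over 9 libraries), a mitochondrial ribosome recycling factor, followed by Herc4 (0.923), Lbr (0.919), Bcl6 (0.901) and Zswim3 (0.899). Mrrf averaged 16.6 ± 1.30 CPM in APP/PS1xRIPK1KD, 20.7 ± 2.56 CPM in APP/PS1 and 24.2 ± 4.36 CPM in WT. Bcl6, a transcriptional repressor, averaged 8.60 ± 2.70, 12.0 ± 2.30 and 12.7 ± 3.27 CPM in the same order of genotypes. Among those most like Ch25h was Darc (0.923), the older symbol of Ackr1, a chemokine-binding protein of venules. Ssbp2 (0.913), Tmem176b (0.904) and Casp12 (0.898) followed. Without WT replicate 3 the r with Ch25h was 0.893 for Darc.

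Per kb of exon, averaged over all 9 libraries, Lrg1 was at 47.2 CPM per kb, Ephb4 at 29.7, Vwf at 25.2, Vcam1 at 23.6, Icam1 at 17.2, Ch25h at 15.4, Il1r1 at 13.2, Lcn2 at 6.11, Nr2f2 at 2.06 and Selp at 0.225 CPM per kb. The length used is the union of all annotated exons of a gene, such as 16064 bp for Vwf and 2623 bp for Lcn2. It can exceed the length of the transcript expressed, which lowers the value, so the order depends partly on the annotation. The place of Lrg1 rests on WT replicate 3, with 255 CPM per kb there and an SD of 79.4 over libraries. The neighbours from Ephb4 to Il1r1 differ by less than their SDs, which are 5.31 to 15.5 CPM per kb, while Nr2f2 (SD 0.879) and Selp (SD 0.239) lie below the ranges of Ephb4, Vwf, Icam1, Ch25h and Il1r1. The counting is not stated to use strand, and 6 of the 10 genes overlap exons of a gene on the opposite strand. The overlap is 643 bp for Nr2f2 (B130024G19Rik), 511 bp for Icam1 (Gm47079), 438 bp for Selp (Gm16548), 159 bp for Ch25h (Gm26902), 61 bp for Vcam1 (Gm43109) and 33 bp for Ephb4 (Zan), so reads of the partner cannot be told apart there.

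The genes around the group were followed in 9 lists with 96 distinct tested genes besides the 10. In edgeR 0 of the 96 were called in each of the 3 comparisons. An unadjusted p under 0.05 was reached by 7 in APP/PS1xRIPK1KD against APP/PS1 (beside 2.34% of all tested genes lower and 2.44% higher), by 8 in APP/PS1xRIPK1KD against WT (beside 3.21% and 2.97%) and by 8 in APP/PS1 against WT (beside 2.65% and 3.49%). DESeq2 called 0 in the first, 2 in the second (Cebpd and Insig1) and 1 in the third (Angpt2), beside 20, 63 and 45 of 13251 genes. Of the 8 other venous genes, 6 were below 0 in APP/PS1xRIPK1KD against APP/PS1, beside 50.6% of all tested genes, with a median of -0.52. Of these 8, 3 were lower without overlap, Darc and Bmp4 among them, and 0 higher, beside 4.66% lower and 5.32% higher over all tested genes. Darc stood at 2.67, 2.58 and 3.50 CPM in APP/PS1xRIPK1KD, against 7.55, 13.7 and 12.3 CPM in APP/PS1 and 2.68, 2.32 and 122.8 CPM in WT. All APP/PS1xRIPK1KD libraries of Darc were below those of APP/PS1 and near WT replicates 1 and 2. Bmp4, a bone morphogenetic protein ligand, averaged 2.53 ± 1.73 CPM in APP/PS1xRIPK1KD, 9.55 ± 3.92 CPM in APP/PS1 and 1.95 ± 0.703 CPM in WT. APP/PS1 stood above both other genotypes in every library (log2 fold change 2.29 ± 0.63 over WT, FDR 0.787 in edgeR). Of all tested genes, 5.43% were higher without overlap in APP/PS1 than in WT. The marker Plvap, of fenestrated and some venous endothelium, went the other way, with 485 ± 168 CPM in APP/PS1xRIPK1KD, 258 ± 102 CPM in APP/PS1 and 421 ± 160 CPM in WT (log2 fold change 0.91 ± 0.37 between the first 2, FDR 0.994 in edgeR). Slc38a5, a venous amino acid transporter, averaged 189 ± 34.3, 223 ± 18.8 and 296 ± 131 CPM in the same order of genotypes. The median of the venous list was -0.27 against WT in APP/PS1xRIPK1KD and -0.33 in APP/PS1, and without WT replicate 3 these became -0.03 and 0.29.

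Other adhesion genes went both ways. Of 13 tested, 7 were below 0 and 6 above in APP/PS1xRIPK1KD against APP/PS1, with a median of 0.00, and the medians against WT were 0.06 in APP/PS1xRIPK1KD and 0.02 in APP/PS1. Pecam1 averaged 1210 ± 20.9 CPM in APP/PS1xRIPK1KD, 1129 ± 134 CPM in APP/PS1 and 1164 ± 81.1 CPM in WT, and Esam averaged 1465 ± 113, 1476 ± 14.4 and 1588 ± 94.5 CPM. Jam3, a junctional adhesion molecule, was the 1 gene of these 13 without overlap between APP/PS1xRIPK1KD and APP/PS1. Over all tested genes 5.32% were higher and 4.66% lower without overlap. It averaged 32.7 ± 2.82 CPM in APP/PS1xRIPK1KD, 19.6 ± 1.64 CPM in APP/PS1 and 36.4 ± 23.6 CPM in WT (log2 fold change 0.73 ± 0.34 between the first 2, and -0.89 ± 0.35 for APP/PS1 against WT, FDR 1.0 and 0.793 in edgeR). Sele, the gene of E-selectin, was below the filter and is named because of its values: it held 126 counts (2.70 CPM) in WT replicate 3 and at most 1 count in each other library.

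Around Il1r1, 16 of 22 genes of interleukin 1 and interleukin 6 signalling were tested, and the transcripts of the ligands were nearly absent, with 0 counts of Il1b in all libraries and at most 7 counts of Il1a. In APP/PS1xRIPK1KD against WT 13 of the 16 were below 0, beside 49.4% of all tested genes, with a median of -0.29, or -0.05 without WT replicate 3. Libraries did not overlap for 5 lower genes and 2 higher ones, of 16, beside 5.99% lower and 6.05% higher over all tested genes. The 2 higher were Sigirr, an inhibitory receptor of the family, and Lifr, the leukaemia inhibitory factor receptor. The 5 lower were the co-receptor Il1rap, the kinases Irak2 and Irak4, the adaptor Traf6 and the transcription factor Cebpd. Cebpd stood at 51.8, 51.8 and 40.5 CPM in APP/PS1xRIPK1KD, against 79.4, 88.8 and 82.8 CPM in WT (log2 fold change -0.80 ± 0.20, FDR 0.531 in edgeR), with WT replicate 3 close to the other WT libraries. Irak2 averaged 93.9 ± 22.3 CPM in APP/PS1xRIPK1KD and 162 ± 48.7 CPM in WT (FDR 0.569). In APP/PS1xRIPK1KD against APP/PS1 the median of the list was -0.17 and in APP/PS1 against WT -0.06. The 13 NF-kB targets had medians of -0.17, -0.09 and -0.07 in the 3 comparisons, and without WT replicate 3 the last 2 became 0.13 and 0.00. The inhibitor gene Nfkbia averaged 771 ± 103 CPM in APP/PS1xRIPK1KD, 801 ± 110 CPM in APP/PS1 and 881 ± 223 CPM in WT.

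Around Vwf and Selp, 9 of 11 genes of Weibel-Palade bodies and their release were below 0 in APP/PS1xRIPK1KD against APP/PS1, beside 50.6% of all tested genes. The median was -0.29. Of the 11, 2 were lower without overlap, Angpt2 among them, and 0 higher, beside 4.66% and 5.32% of all tested genes. Angpt2, a cargo of these granules, stood at 22.7, 23.3 and 13.1 CPM in APP/PS1xRIPK1KD, against 32.2, 26.7 and 24.8 CPM in APP/PS1 and 12.1, 12.9 and 14.9 CPM in WT. All APP/PS1 libraries of Angpt2 were above all others, with a log2 fold change of 1.07 ± 0.25 over WT (FDR 0.707 in edgeR). It was the 1 gene of the 11 without overlap between APP/PS1 and WT, beside 5.43% of all tested genes higher and 5.44% lower. Around Ch25h, the 9 tested oxysterol genes had medians of 0.09, -0.15 and -0.10. Insig1, a brake on sterol synthesis that binds 25-hydroxycholesterol, averaged 54.0 ± 2.87 CPM in APP/PS1xRIPK1KD, 48.9 ± 2.43 CPM in APP/PS1 and 30.0 ± 7.55 CPM in WT. Its libraries did not overlap with WT in either genotype (log2 fold change 0.85 ± 0.18, FDR 0.27, and 0.70 ± 0.18, FDR 0.711, in edgeR). In each of these comparisons it was the 1 gene of the 9 without overlap, beside 6.05% and 5.43% of all tested genes that were higher. The 14 arterial genes had medians of -0.17, -0.08 and 0.00. Mgp, matrix Gla protein, stood at 133, 172 and 483 CPM in APP/PS1xRIPK1KD, against 722, 370 and 767 CPM in APP/PS1 and 619, 152 and 572 CPM in WT, lowest in the libraries that were low for most of the 10 genes. Of the same 14 genes, 2 were higher without overlap in APP/PS1xRIPK1KD than in APP/PS1 and 0 lower, beside 5.32% and 4.66% of all tested genes. Nrp1, a co-receptor of VEGF and semaphorins, averaged 511 ± 91.6 CPM in APP/PS1xRIPK1KD and 314 ± 34.1 CPM in APP/PS1 (log2 fold change 0.70 ± 0.17, FDR 0.98 in edgeR). The other was Efnb2, the gene of ephrin B2 (0.24 ± 0.16, FDR 1.0). The 7 tested chemokines had medians of 0.09, -0.01 and -0.12, and the last 2 became 0.82 and 1.21 without WT replicate 3. Those shifted medians include genes with few counts. In WT replicates 1 and 2, Cxcl9 had 1 and 0 counts and Ccl5 had 10 and 0. Cxcl12 and Cx3cl1, of highest mean level, had 0.36 and -0.01 against WT in APP/PS1xRIPK1KD with all libraries. In APP/PS1 they had -0.11 and -0.12. The 5 tested receptors and partners of Lcn2 and Lrg1 had medians of 0.12, -0.07 and -0.08, and among them endoglin (Eng) averaged 1824 ± 40.4 CPM in APP/PS1xRIPK1KD, 1680 ± 341 CPM in APP/PS1 and 1773 ± 279 CPM in WT.

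**Figure D4:**
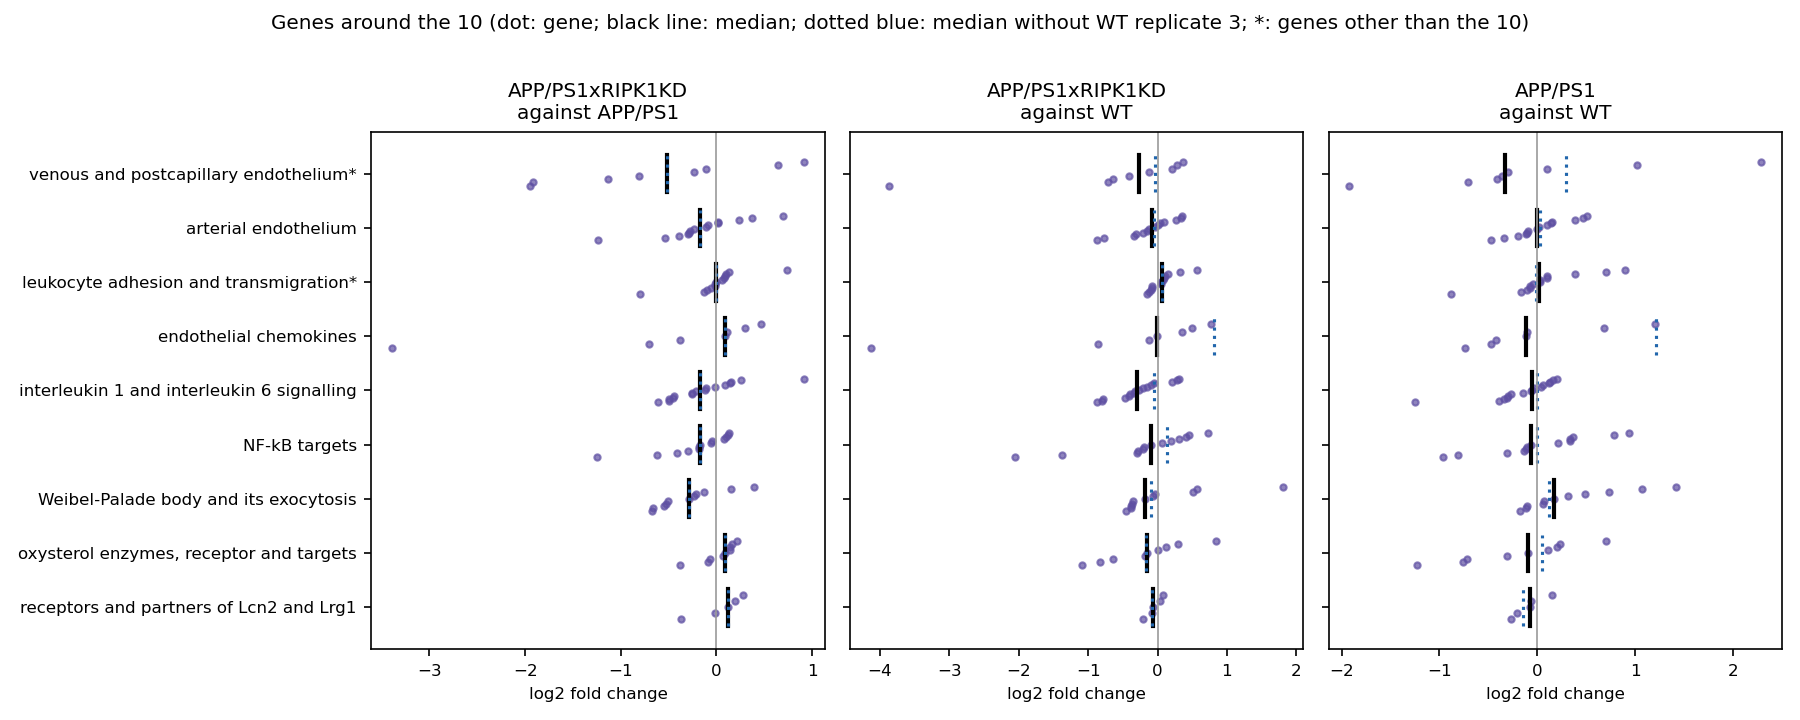
Log2 fold change (horizontal axes) of every tested gene in 9 lists around the 10 genes, in the 3 comparisons, with the median with all libraries (black) and without WT replicate 3 (dotted). The venous list sits left of 0 in APP/PS1xRIPK1KD against APP/PS1 (median -0.52), and no gene passed the FDR threshold in edgeR.

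Markers of other cell types that the sort could carry were summed in each library. The 12 mural cell markers, led by Acta2 and Vtn, summed to 68.9 to 262 CPM in APP/PS1xRIPK1KD, 184 to 239 CPM in APP/PS1 and 13.1 to 59.4 CPM in WT, with an exact 2-sided permutation p of 0.1 for each against WT, the smallest that 3 against 3 allows. The sum was lowest of its genotype in APP/PS1xRIPK1KD replicate 1 and in WT replicate 2, the libraries in which 7 and 9 of the 10 genes were also lowest. The 6 fibroblast markers summed to 2.06 to 7.26, 6.82 to 13.4 and 0.132 to 1.24 CPM in the same order, with Lum at 0 in all 9 libraries. Mural cells and fibroblasts can express Vcam1, Icam1 and Il1r1, and their part in the results was not tested.

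The neutrophil markers, 8 in number, summed to 0.844 to 1.65 CPM in APP/PS1xRIPK1KD, 0.818 to 3.21 CPM in APP/PS1 and 0.920 to 2.74 CPM in WT, with Ngp and Mmp8 at 0 in all libraries. In WT replicate 3, where Lcn2, also a neutrophil granule gene, reached 110.2 CPM, the neutrophil sum was 0.920 CPM, the lowest of WT. Single markers went both ways there. Ltf was at 0 CPM, against 0.620 and 2.14 CPM in WT replicates 1 and 2, and S100a8 at 0.193 CPM, against 0.177 and 0 CPM. The part of neutrophils in the results was not tested. The 8 platelet markers, which matter for Vwf and Selp, summed to 4.70 to 11.2 CPM in APP/PS1xRIPK1KD, 1.98 to 3.40 CPM in APP/PS1 and 3.27 to 7.66 CPM in WT, with Gp6 at 0. The platelet sum was higher in every APP/PS1xRIPK1KD library than in every APP/PS1 library (exact permutation p = 0.1). Vwf was lower in APP/PS1xRIPK1KD, and the part of platelets in the results was not tested. The 8 lymphocyte and pan-leukocyte markers summed to 0.775 to 3.72, 1.77 to 3.24 and 1.63 to 3.51 CPM, with Ptprc, the gene of CD45, at 0 in 6 libraries. The 10 microglia and macrophage markers summed to 65.3 to 89.9, 55.5 to 103 and 53.0 to 98.3 CPM, and the 6 choroid plexus markers, mostly Ttr, to 179 to 315, 68.2 to 149 and 55.6 to 89.0 CPM. The choroid plexus sum was higher in every APP/PS1xRIPK1KD library than in every other (exact permutation p = 0.1 for each comparison), and its part in the results was not tested. Astrocyte sums were 75.9 to 93.4, 69.4 to 77.0 and 38.5 to 110 CPM, oligodendrocyte sums 32.3 to 34.5, 33.0 to 81.6 and 29.5 to 40.4 CPM, and neuron sums 1.39 to 8.63, 4.03 to 7.40 and 4.32 to 11.9 CPM. Erythroid sums, mostly haemoglobin transcripts, were 2346 to 4122 CPM in APP/PS1xRIPK1KD, 1959 to 9516 CPM in APP/PS1 and 2122 to 2771 CPM in WT. These 4 lists overlapped between all genotypes.

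**Figure D5:**
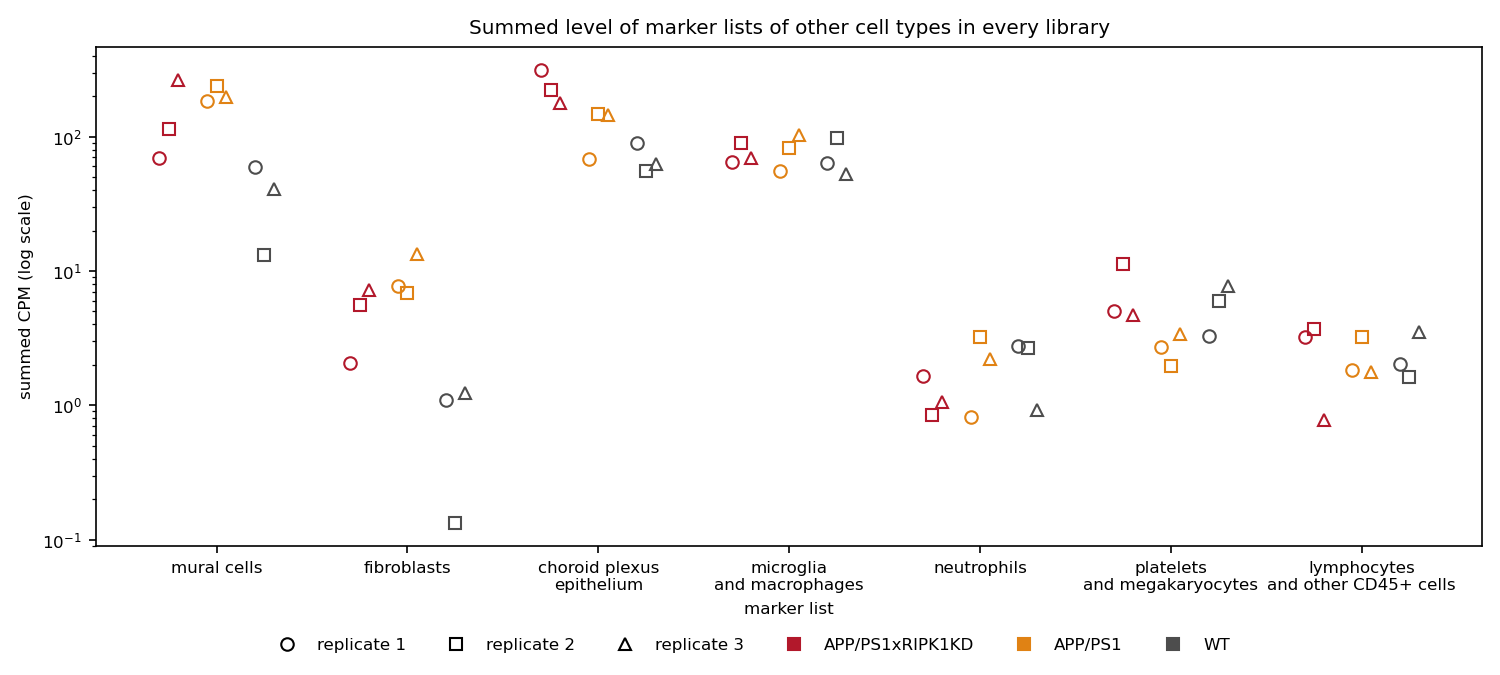
Summed CPM (log axis) of 7 marker lists of other cell types in every library, with APP/PS1xRIPK1KD, APP/PS1 and WT side by side and a marker shape per replicate number. Mural and fibroblast sums are higher in both transgenic genotypes than in WT, and the neutrophil sum of WT replicate 3 is 0.920 CPM.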

How the data were processed

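Expected counts by gene symbol for 9 libraries were deposited by the authors as 1 matrix. Per the submitters' processing notes, Bowtie 0.12.2, RSEM, edgeR 3.10.2 and mm10 (GRCm38) were used, with no annotation named. Of the values 28.3% are not whole, the form of RSEM estimates, so reads shared between similar genes are split by model. The authors also deposited an edgeR table of APP/PS1 against WT with log2 fold changes and log2 CPM, a likelihood ratio score, a p-value and an FDR for each gene, per the file headers. Its log2 values, score and p-value columns served only as the authors' own values.

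Expected counts were rounded, filtered by filterByExpr (minimum count 10, minimum total 15) and scaled by TMM. One edgeR 4.0.16 quasi-likelihood model (robust, all 9 libraries, 1 coefficient per genotype) was fitted under R 4.3.3, with 2-sided contrasts, Benjamini-Hochberg adjustment over 13317 genes and an FDR threshold of 0.05. Alternatives were DESeq2 1.42.0, RLE scaling, no filter, only the 6 libraries compared, a replicate block, leaving out each library and leaving out replicate 3 of every genotype. The code of the fit was run on simulated counts with known changes. No simulated library was made to stand apart as WT replicate 3 does, so that run does not give error rates for these data. Marker sums were compared with scipy 1.17.1 and figures drawn with matplotlib 3.10.9. Correlations used log2 CPM with a prior count of 2. Positions are from GENCODE M21 on GRCm38 by symbol, and promoter windows from RefSeq on GRCm38.p6.

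The 10 genes and all lists were chosen with earlier results of these data known. Genes named besides the 10 are the 3 of highest mean CPM in each list, those past the FDR threshold, the 5 most like Il1r1 and Ch25h, and the leading or absent markers. Others (Darc, Sele, Il1a, Il1b, Il1rap, Irak2, Irak4, Traf6, Cebpd, Sigirr, Jam3, Efnb2, Bmp4, Angpt2, Insig1, Cxcl9 and Ccl5) were chosen after their values were seen. Not every gene that the rule selects is discussed by name, and 1 is not reported here. Ackr1 was matched by its older symbol Darc. Libraries carry no molecular identifiers, so the floor of 3 counts covers counting error only, and p-values measure the spread between these libraries.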

Additional observations from a re-analysis of the deposited data

How the results depend on the processing

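The same-numbered libraries deviated from their genotype means with correlations of -0.019 to 0.098, so these deviations do not show that the replicate numbers pair them, although replicate 3 of every genotype is the library with Y-linked transcripts and little Xist. With the replicate block the genes called over the whole table were 0, 0 and 2 for APP/PS1xRIPK1KD against APP/PS1, APP/PS1xRIPK1KD against WT and APP/PS1 against WT, against 1, 5 and 3 without it. None of the 10 genes was called with the block, and for APP/PS1 against WT the block turned the log2 fold changes of Ch25h to 0.18 and Vwf to 0.006. Over the whole table DESeq2 called 20, 63 and 45 genes, among the 63 Il1r1, the 1 gene of the 10 that any alternative called. No filter on low counts gave 14 for APP/PS1xRIPK1KD against WT and 7 for APP/PS1 against WT, and the 6 libraries alone gave 3 for APP/PS1xRIPK1KD against WT. Without replicate 3 of every genotype the counts were 0, 8 and 3, and leaving out 1 library gave 0 to 4, 2 to 9 and 1 to 5. The causes were not tested.

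The 10 log2 fold changes of APP/PS1xRIPK1KD against APP/PS1 kept their sign under all 15 alternatives. Against WT, 28 of 300 values changed sign. Leaving out 1 library, APP/PS1xRIPK1KD against WT ranged from -1.19 to 0.65 for Vcam1, -0.66 to 0.19 for Icam1, -0.31 to 0.83 for Nr2f2, -0.046 to 0.25 for Ephb4 and -2.71 to 0.012 for Selp. APP/PS1 against WT ranged from -0.57 to 0.086 for Il1r1, -0.60 to 1.03 for Ch25h, -0.46 to 0.19 for Vwf, -0.048 to 1.68 for Vcam1, -0.27 to 0.065 for Ephb4, -3.18 to 0.62 for Lcn2 and -2.07 to 0.80 for Lrg1. Without replicate 3 of every genotype, APP/PS1xRIPK1KD against WT was 0.023 for Vcam1 and 0.009 for Icam1, and APP/PS1 against WT was 0.29 for Il1r1, 1.03 for Ch25h, 0.14 for Vwf, 0.33 for Lcn2 and 0.39 for Lrg1. Where a genotype keeps fewer libraries, its spread is taken from the other genotypes. Selp had at most 80 counts in a library, and libraries of 1 genotype differed widely in it.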
